A study of Mus musculus with 34 samples.

Results

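RP-116 is a mouse small cell lung cancer (SCLC) line, and its expression profile was compared with those of RP-48 and G8545, the other lines of the same 96 h experiment. Its members are the RP-116 libraries of that experiment, 1 with the solvent DMSO and 1 with bomedemstat (BOM), a drug that blocks the chromatin enzyme LSD1. They are 2 of the 34 samples of the series and 2 of the 6 libraries of the experiment. RP-48 and G8545 likewise gave 1 DMSO and 1 BOM library each, all from polyadenylated RNA of cultured SCLC cells after 96 h. The labels give no genotype, clone, animal of origin or BOM dose for these lines. All 3 are mouse SCLC cultures, so no normal lung cell stands among the controls.

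SCLC is a tumor of neuroendocrine character, whose cells express hormone and secretory vesicle genes. Cell lines of this tumor differ in which MYC family gene they amplify or express, in NFI transcription factors, in epithelial against mesenchymal features and in how well they present antigen on MHC class I. Such standing differences between lines are part of what a drug is tested against.

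The comparison asks which genes set RP-116 apart from both other lines whatever the treatment. Levels are CPM (counts-per-million), the counts of a gene scaled to the same total in every library, and where a pair is given, the first value is with DMSO and the second with BOM. A log2 fold change is RP-116 minus the other 4 libraries with treatment held fixed, so that 1 is a 2-fold difference. It stands with an approximate standard error (SE), worked back from the test statistic. The difference between RP-48 and G8545 was left in the error. A gene was called higher or lower at a p below 0.05 after adjustment over all genes tested. Libraries held 8712025 to 9968681 counts, and 14235 of 28432 genes had enough counts to be tested. The share of mitochondrial counts was 1.56 to 1.58% in RP-116 and 0.708 to 1.14% in the other lines, and the part of this difference in the results was not tested.

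Of the 14235 genes, 487 were called higher (3.42%) and 746 lower (5.24%) in RP-116, together 8.66%. The fold change was at least 2-fold for 1045 of these 1233 genes and at least 16-fold for 96 of the higher and 281 of the lower ones. In 1232 of them both RP-116 libraries lay outside the range of the other 4, against 46.2% of all genes tested, and 1228 had the same sign against RP-48 and against G8545 taken alone. The exception in separation was Hes5. Separation and equal sign largely follow from the call, which used the same 6 libraries, so they are no further support for it. The lowest adjusted p was 0.00257, and 3905 genes had an unadjusted p below 0.05. The RP-116 libraries are 1 line sampled under 2 treatments, not independent lines, so the p-values measure the spread between these 6 libraries and are too small as a statement about lines in general. Without either the RP-116 DMSO or the RP-116 BOM library no gene was called by edgeR (1855 and 1717 at an unadjusted p below 0.05). Without a library of RP-48 or G8545 the count was 554 (RP-48 DMSO), 466 (RP-48 BOM), 701 (G8545 DMSO) or 790 (G8545 BOM).

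**Figure D1:**
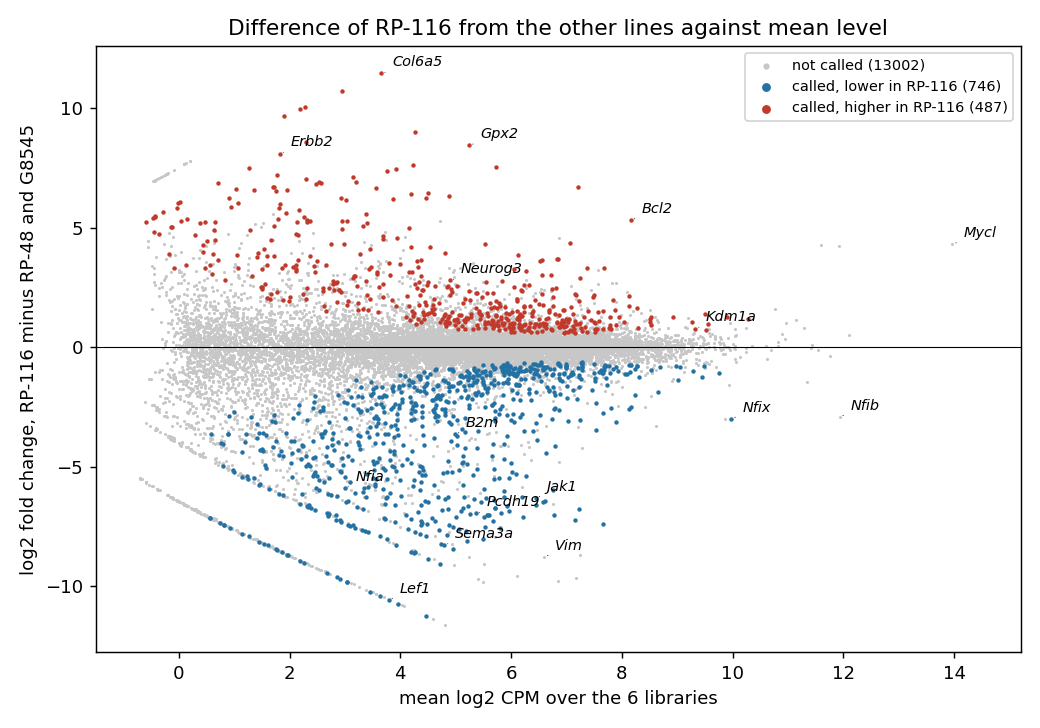
Each point is a tested gene, with the mean log2 CPM over the 6 libraries on the horizontal axis and the log2 fold change of RP-116 against RP-48 and G8545 on the vertical axis; red and blue points passed the test. Mycl lies far to the right at 4.31 without passing, and the straight lines of points at the lower left are genes with 0 or 1 counts in RP-116.

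RP-116 carried the neuroendocrine profile of its label. Insm1, a zinc finger factor of neuroendocrine cells, was at 971 and 916 CPM in RP-116 and at 555 to 818 CPM in the others (adjusted p = 0.103). Chga (chromogranin A), Syp (synaptophysin) and Ddc (DOPA decarboxylase) were present in all 6 libraries, with Chga at 331 and 252 CPM in RP-116 and 295 to 520 CPM elsewhere. The lung factor Nkx2-1 was at 579 and 591 CPM in RP-116, 181 and 225 in RP-48 and 367 and 455 in G8545 (adjusted p = 0.139). Markers of other SCLC types were low. Neurod1 stood at 15.8 and 16.1 CPM in RP-116 and at 2.31 to 8.36 CPM in the others, and Pou2f3, the tuft cell factor, had 0 counts in RP-116. Yap1 was at 11.6 and 14.5 CPM in RP-116 and 9.94 and 26.4 in G8545, with 0 counts in RP-48.

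Markers of other cells gave no call. Of the 15 hematopoietic genes 2 were measured (Cd68 and Coro1a), of 15 fibroblast genes 7, of 10 endothelial genes 5 and of 13 muscle, fat and keratinocyte genes 4. The leukocyte antigen Ptprc and the collagens Col1a1 and Col3a1 had too few counts to be tested. The summed level of the fibroblast genes was 13.2 and 13.5 CPM in RP-116, 9.17 and 21.4 in RP-48 and 197 and 166 in G8545. The endothelial sum of 209 and 143 CPM in RP-116 was nearly all Vwf (202 and 134 CPM), while Pecam1 and Cdh5 had too few counts to be tested. In bulk RNA, fewer cells with a transcript and less of it per cell cannot be told apart.

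Within the neuroendocrine factors, individual members differed in both directions. Of 30 measured genes 3 were called higher and 4 lower (23.3% called, beside 8.66% of all genes). The median log2 fold change of the 30 was -0.18 beside -0.02 over all genes tested. Neurog3, a proneural factor of endocrine progenitors, stood at 67.4 and 64.0 CPM in RP-116 against 8.33 to 11 CPM in the other 4 libraries (2.80 ± 0.17, adjusted p = 0.00385). Sox2 was at 45.6 and 37.7 CPM against 11.97 to 18.3 CPM (1.61 ± 0.25), and the corepressor gene Runx1t1 at 230 and 223 CPM against 75.1 to 110 CPM (1.41 ± 0.17). On the lower side, the homeobox gene Nkx2-2 was at 0.230 and 0.113 CPM, against 4.83 to 11.4 CPM elsewhere. Onecut1 had 0.115 and 0.113 CPM against 4.53 to 8.73 CPM, and the proneural gene Neurod4 0.115 and 0 CPM against 5.02 to 19.5 CPM. Lhx2 remained present at 10.8 and 10.3 CPM in RP-116, below the 53.7 to 109 CPM of the others (-2.80 ± 0.36, adjusted p = 0.0189). All 7 separated RP-116 from both other lines, as did 1232 of the 1233 called genes. Of the 30 measured genes 7 lay above the other 4 libraries, 9 lay below them and 14 overlapped. Over all genes tested, 46.2% were separated.

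The list of granins, prohormone processing enzymes and neuropeptides also held catecholamine genes such as Th and Slc18a1. Of its 26 measured members 2 were called higher and 1 lower (11.5%), and of 36 synaptic vesicle genes 1 each way (5.56%), beside 8.66% of all genes. Cpe, carboxypeptidase E of the prohormone pathway, stood at 237 and 237 CPM in RP-116 and 593 to 807 CPM in the others (-1.38 ± 0.21, adjusted p = 0.0247). The catecholamine genes Th (tyrosine hydroxylase, 5.05 and 4.65 CPM against at most 0.201) and Slc18a1 (a vesicular monoamine transporter, 10.7 and 7.25 CPM against at most 3.24) were the 2 higher ones. The growth cone gene Gap43 was at 2.18 and 3.97 CPM against 55.3 to 88.0 CPM (-4.54 ± 0.28), while the vesicle sensor Syt7 was at 678 and 409 CPM against 158 to 217 CPM (1.64 ± 0.19). Calca, the precursor of calcitonin and CGRP, was at 191 and 156 CPM in RP-116, 63.0 and 59.8 in RP-48 and 18.5 and 10.2 in G8545, without passing the test (adjusted p = 0.145).

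**Figure D2:**
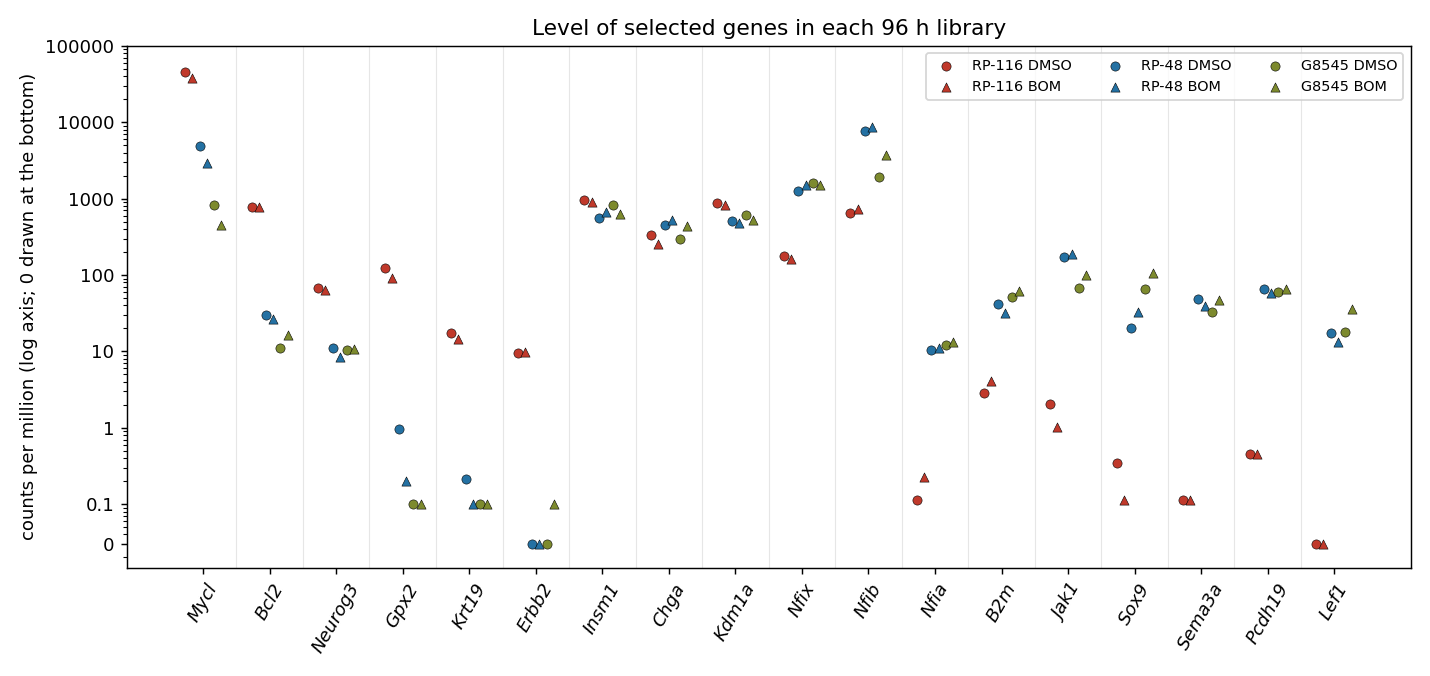
Level of 18 genes in the 6 libraries at 96 h, in CPM on a log axis with 0 drawn at the bottom; circles are DMSO, triangles BOM, and colors are lines. The RP-116 points lie at the top for Mycl to Erbb2, among the others for Chga, and at the bottom for Nfix to Lef1.

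The most abundant transcript of RP-116 was that of Mycl, the MYC family gene first found amplified in SCLC. It stood at 45575 and 37487 CPM in RP-116, 4849 and 2937 in RP-48 and 829 and 449 in G8545. That was 4.56 and 3.75% of all counts of the RP-116 libraries, and at most 0.485% in the others. All 3 lines were ordered without overlap, RP-116 highest and G8545 lowest. The log2 fold change was 4.31 ± 0.99, and with the gap between RP-48 and G8545 in the error it did not pass the test (adjusted p = 0.0614 with edgeR, 0.0490 with DESeq2). Against RP-48 alone the value was 3.50 and against G8545 alone 6.21. Myc and Mycn went the other way in level. Myc was at 1.61 and 1.59 CPM in RP-116, 11 and 9.03 in RP-48 and 37.8 and 31.7 in G8545 (-3.67 ± 0.83, adjusted p = 0.0595 with edgeR and 3.19e-05 with DESeq2). Mycn was at 2.98 and 3.29 CPM in RP-116 and 6.90 to 39.2 CPM in the others (-2.26 ± 0.80). Per kilobase of transcript, RP-116 with DMSO held 11287 CPM of Mycl, 0.591 of Myc and 0.906 of Mycn. Of the 13 MYC family and MAX network genes, 1 was called (7.69%, beside 8.66% of all genes). It was the MAX partner Mnt (100 and 86.0 CPM against 50.8 to 77.0 CPM, 0.72 ± 0.14).

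Several genes around Mycl shared its order. Mycl lies on chromosome 4 at 122995652-123002485 (mm10). Distances run from its start to the lowest coordinate of each gene. Trit1, a tRNA modifying enzyme 20.9 kb downstream of its start, stood at 7973 and 8020 CPM in RP-116, 886 and 706 in RP-48 and 58.9 and 53.9 in G8545. Ppie, a spliceosomal prolyl isomerase at 131 kb, stood at 9387 and 10819 CPM, 1119 and 971 CPM, and 75.6 and 52.1 CPM in the same lines. Both had the 3 lines in the order of Mycl, without overlap, and neither passed the test. Hpcal4, a neuronal calcium sensor at 188 kb, was the 1 gene of this stretch that passed the test (48.2 and 45.9 CPM against 4.41 CPM and less, 4.22 ± 0.80, adjusted p = 0.0404). Beyond it, Pabpc4 at 267 kb was at 80.5 and 77.5 CPM in RP-116 and 82.1 and 71.2 in G8545 but at 818 and 909 in RP-48. On the other side Mfsd2a, 48.8 kb upstream, was likewise highest in RP-48 (616 and 364 CPM) and at 66.0 and 92.3 CPM in RP-116. Cap1, 137 kb upstream, was as high in RP-116 (3331 and 3402 CPM) as in RP-48 (3263 and 3991 CPM), against 386 and 348 CPM in G8545. Ppt1, a lysosomal thioesterase gene 159 kb upstream, had the order of Mycl again (631 and 616 CPM in RP-116, 348 and 383 in RP-48, 58.3 and 91.9 in G8545) and was not called. Macf1 at 354 kb was lowest in RP-116. The region was chosen after its values were seen, and DNA copy number was not measured in these libraries.

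**Figure D3:**
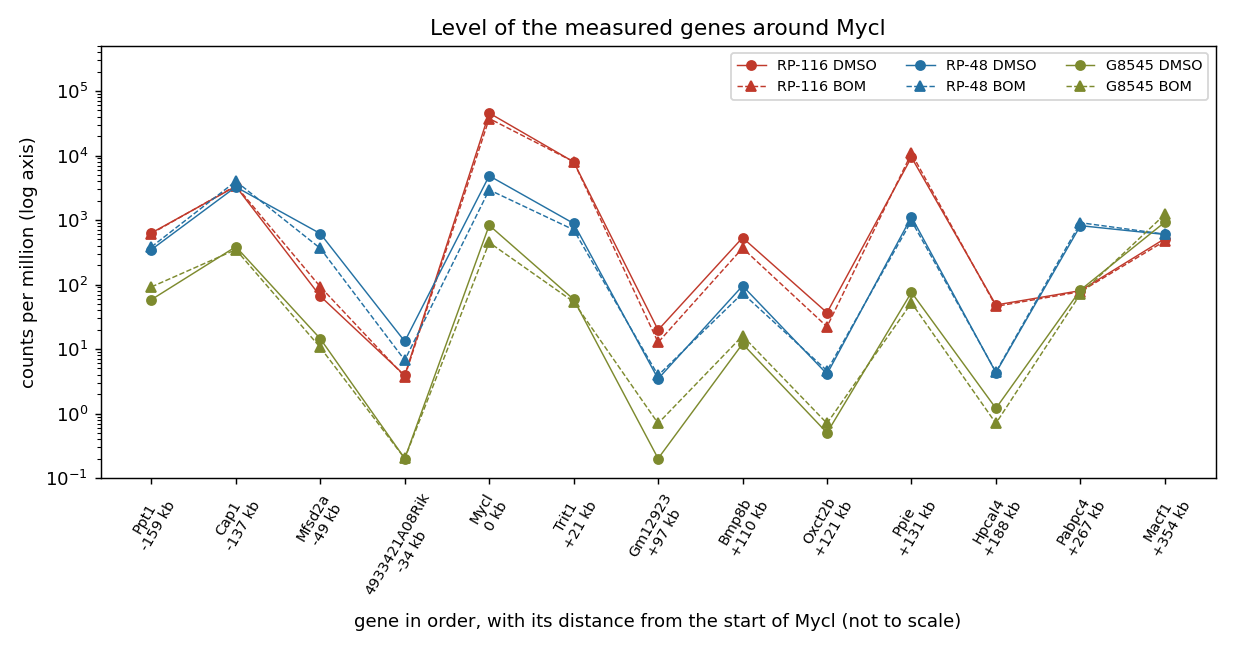
Level in CPM (log axis) of the measured genes around Mycl, in genome order with the distance of the lowest coordinate of each from the start of Mycl. Each line joins 1 library, dashed for BOM. From Mycl to Hpcal4 the RP-116 lines run above those of RP-48 and these above G8545, while at Mfsd2a and Pabpc4 the RP-48 lines are highest.

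Bcl2, which blocks mitochondrial apoptosis, had the highest mean level in RP-116 among the 96 genes called at least 16-fold higher. It stood at 787 and 776 CPM in RP-116, 29.5 and 26.5 in RP-48 and 10.9 and 16.3 in G8545. The log2 fold change was 5.31 ± 0.47 (adjusted p = 0.00974). Bik, a BH3-only promoter of cell death, was also called higher (37.9 and 17.6 CPM against 1.10 to 1.94 CPM, 4.09 ± 0.34). The other 14 of the 16 measured BCL2 family genes were not called, so 12.5% were called, beside 8.66% of all genes. Mcl1 overlapped between the lines (187 and 178 CPM against 165 to 205 CPM), and Bcl2l1, which encodes BCL-XL, was at 57.6 and 62.4 CPM against 70.4 to 113 CPM (adjusted p = 0.234). Per kilobase of transcript, Bcl2 in RP-116 with DMSO held 85.9 CPM, Mcl1 54.6 and Bcl2l1 12.6, while in RP-48 with DMSO Bcl2 held 3.23.

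Bcl2 stood in a run of 6 neighbouring measured genes that were all called higher, on chromosome 1 at 105979350-106796728. They are Gm7160, Zcchc2, Phlpp1, Bcl2, Kdsr and Vps4b, with log2 fold changes of 1.54 to 5.31. Kdsr, an enzyme of ceramide synthesis, was at 228 and 217 CPM against 40.3 to 49.96 CPM, and Vps4b, an ESCRT ATPase, at 438 and 431 CPM against 106 to 138 CPM. A second run of 8 genes lay on the same chromosome at 182313102-183325476, from Fbxo28 through Trp53bp2, Capn2, Capn8, Susd4, Disp1 and Brox to Aida, with log2 fold changes of 0.76 to 5.50 and a median of 1.05. No other run of 5 or more neighbouring genes was called in 1 direction.

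Whole chromosomes also differed in their median. On chromosome 8 the 786 tested genes had a median log2 fold change of -0.54 beside -0.02 over all genes, and 83.0% lay below 0. There 94 were called lower and 8 higher (13% called, beside 8.66% of all genes). The median was -0.55 against RP-48 and -0.48 against G8545, whereas RP-48 and G8545 differed from each other by 0.07. All 13 bins of 10 Mb had a median below 0, from -0.76 to -0.42. A stretch of chromosome 1 was shifted the other way. Its genes between 140 and 190 Mb (253 tested) had a median of 0.76, with 71 called higher and 7 lower (30.8% called). The other 564 genes of that chromosome had a median of 0.00, with 10.8% called. Both regions were chosen after the values were seen, and no further chromosome apart from Y and the mitochondrial genes had a median outside -0.17 to 0.16. Called genes on chromosome 8 include Nfix, Cdh11, Cpe, Efnb2 and Smad1, and the part of the chromosome's shift in their differences was not tested.

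**Figure D4:**
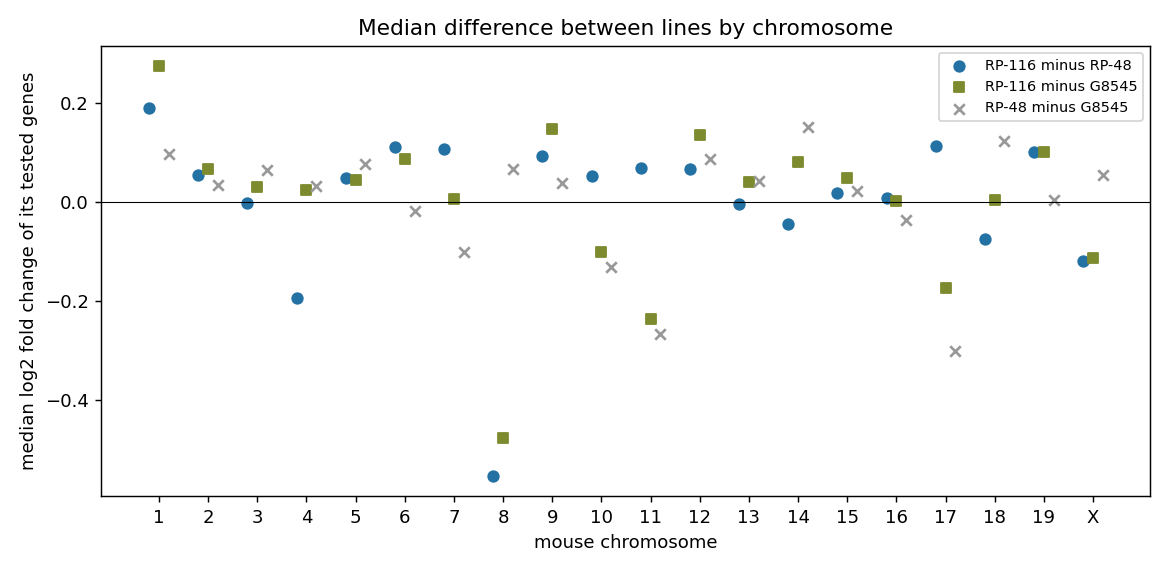
Median log2 fold change of the tested genes of each chromosome for RP-116 against RP-48 (circles), RP-116 against G8545 (squares) and RP-48 against G8545 (crosses). Chromosome 8 lies near -0.5 in both comparisons that involve RP-116 and near 0 between the other lines.

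Nuclear factor I genes encode DNA-binding proteins of development (NFIB is known to open chromatin in SCLC). All 4 had their RP-116 values below those of every other library, as had 28.4% of all genes tested. The test was passed by 3 of them, all lower, beside 5.24% of all genes called lower. Nfix stood at 175 and 164 CPM in RP-116, 1246 and 1488 in RP-48 and 1585 and 1518 in G8545 (-3.00 ± 0.18, adjusted p = 0.00380). Nfia was nearly absent from RP-116 at 0.115 and 0.227 CPM, against 10.6 to 13.3 CPM (-5.92 ± 0.46, adjusted p = 0.00773). Nfic was at 122 and 98.0 CPM against 218 to 284 CPM (-1.10 ± 0.19, adjusted p = 0.0327). Nfib, the top gene of both RP-48 libraries, was at 647 and 726 CPM in RP-116, 7755 and 8779 in RP-48 and 1925 and 3675 in G8545 (-2.92 ± 0.78, adjusted p = 0.0849 with edgeR and 3.18e-05 with DESeq2). Nfib lies on chromosome 4 at 82290173-82705750, and its neighbour Zdhhc21 at 82798738-82859958. Zdhhc21 followed the order of Nfib (150 and 163 CPM, 2019 and 2010 CPM, 395 and 827 CPM). Cer1, beyond it on the same side, stood at 101.01 and 111 CPM in RP-116 against 15.8 to 77.9 CPM and was not called (1.61, adjusted p = 0.0928). On the other side of Nfib, Mpdz, a PDZ scaffold gene, was at 2.53 and 2.27 CPM in RP-116 and 97.1 to 236 CPM in the others (-5.99 ± 0.63, adjusted p = 0.0137).

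A set of genes had no count at all in RP-116. At a level of at least 5 CPM in each of the other 4 libraries, 11 genes had 0 counts in both RP-116 libraries, and 5 genes had the reverse pattern. Among the 11 were Lef1, a transcription factor at the end of the WNT pathway, the guidance cue Sema3d, the glycosyltransferase Galnt13, the metalloprotease Adam12, the phosphatase Ptprr and the transcription factor Foxp2. Lef1 was at 17.4 and 13.1 CPM in RP-48 and 17.9 and 35.6 in G8545. With 3 counts over the RP-116 libraries in place of 0, Lef1 was at least 123-fold lower, Sema3d at least 138-fold and Galnt13 at least 96.4-fold. Such bounds cover counting error only. Foxp2 was not called (adjusted p = 0.0507). Of the 12 called genes with the lowest log2 fold changes whose log2 CPM averaged 3 or more, all passed with DESeq2, but 8 did not with limma voom, among them Lef1 (adjusted p = 0.0660), Sema3d (0.151), Grik1 (0.166) and Grik2 (0.113). The glutamate receptor genes Grik1 and Grik2 were also low: Grik1 had 0 counts (at least 72.8-fold lower), and Grik2 had 1 count in RP-116, a ratio of 608 (95% interval from 109 to 24043).

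The reverse set was Col6a5, Serpinb3c, St6gal2, Xlr3c and a predicted gene. Col6a5, a collagen VI chain, was at 38.8 and 32.5 CPM in RP-116 with 0 counts in the other 4 libraries, at least 465-fold higher. Among the other large differences were Zfp57, the zinc finger factor that guards imprinted methylation (48.0 and 60.8 CPM against at most 0.301), and Gpx2, an epithelial glutathione peroxidase (122 and 92.7 CPM against at most 0.971). Gpx2 had a log2 fold change of 8.45 ± 0.70 (adjusted p = 0.00824). Col19a1, the synaptic scaffold Rimbp2, the homeobox gene Barx2 and the BMP family ligand Bmp3 belong here too, as do the chloride channel accessory genes Clca3a1 and Clca3b. Clca3b was the most abundant of them at 465 and 359 CPM against 1.81 to 7.76 CPM. Clca3, Serpinb3 and Xlr3 genes have close copies, between which reads may have been split, so their counts are uncertain. The 12 highest and 12 lowest genes under the naming rule were also looked up in the 3 DMSO libraries of RP-48OVA-LLO190 at 10 d, a culture of another table that was sequenced from total RNA and normalized separately. The name of that culture holds RP-48, and the genes were picked for differing from RP-48 and G8545. The outcome was therefore largely set beforehand and is no independent support. In that culture all 12 low genes were above both RP-116 levels and all 12 high genes below both. Fst, the activin antagonist, was the least clear of these at 0.170 to 0.982 CPM beside 0 and 0.113 in RP-116.

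The promoters of 4 genes, a pair at the bottom and a pair at the top of the RP-116 range, are shown to let their base composition be seen. Each runs from 250 bases before to 50 after a RefSeq gene start (GRCm38.p6, which is mm10), and capitals mark the CG dinucleotides, the sites of DNA methylation in mammals. Lef1 (chr3:131110047-131110346, plus strand) and Jak1 (chr4:101265174-101265473, minus strand) were at or near 0 in RP-116, and hold 18 and 29 CG. Gpx2 (chr12:76795505-76795804, minus strand) and Zfp57 (chr17:37003416-37003715, plus strand) were near 0 in the other lines, and hold 0 and 4. Of the several starts listed for Lef1 and Zfp57 the first was taken.
Lef1: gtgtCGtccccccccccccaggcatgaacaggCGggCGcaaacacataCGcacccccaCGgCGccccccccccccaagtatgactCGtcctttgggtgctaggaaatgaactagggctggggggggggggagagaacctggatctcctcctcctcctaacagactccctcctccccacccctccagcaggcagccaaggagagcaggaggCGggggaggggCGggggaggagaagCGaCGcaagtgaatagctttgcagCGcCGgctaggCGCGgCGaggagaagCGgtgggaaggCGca
Jak1: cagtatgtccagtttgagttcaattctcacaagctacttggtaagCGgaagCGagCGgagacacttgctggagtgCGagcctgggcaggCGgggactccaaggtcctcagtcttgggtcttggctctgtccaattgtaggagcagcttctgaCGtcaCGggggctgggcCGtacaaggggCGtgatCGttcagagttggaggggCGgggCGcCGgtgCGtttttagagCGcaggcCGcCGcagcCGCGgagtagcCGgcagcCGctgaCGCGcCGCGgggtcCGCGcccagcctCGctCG
Gpx2: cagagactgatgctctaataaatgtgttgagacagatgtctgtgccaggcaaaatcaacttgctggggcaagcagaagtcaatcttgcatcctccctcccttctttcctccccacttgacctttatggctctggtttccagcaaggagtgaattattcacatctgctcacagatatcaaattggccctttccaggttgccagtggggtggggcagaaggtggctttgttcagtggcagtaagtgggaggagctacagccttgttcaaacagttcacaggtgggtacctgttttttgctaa
Zfp57: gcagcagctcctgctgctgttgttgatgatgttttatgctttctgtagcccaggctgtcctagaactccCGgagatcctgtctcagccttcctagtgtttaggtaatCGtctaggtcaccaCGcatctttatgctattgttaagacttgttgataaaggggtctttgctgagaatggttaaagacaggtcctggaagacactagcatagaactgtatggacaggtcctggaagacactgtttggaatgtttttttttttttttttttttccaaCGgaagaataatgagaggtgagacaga

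The 4 were chosen after their values were seen, so the groups are given as well. A RefSeq promoter was found for 10950 of the 14235 genes tested (76.9%). The ratio of observed to expected CG was at least 0.6 in 72.4% of them. Among genes called at least 16-fold higher in RP-116 this share was 30.1% (73 with a promoter, median ratio 0.377 beside 0.766 over all). Among those called at least 16-fold lower it was 61.3% (212 with a promoter, median ratio 0.679). Over all called genes the shares were closer, 63.9% of the higher and 66.4% of the lower. Of the 4 promoters shown, that of Jak1 alone reached a ratio of 0.6, at 0.947. Lef1 was at 0.53, Zfp57 at 0.295 and Gpx2 at 0. The E-box CAGCTG, a site of basic helix-loop-helix factors, was present on either strand in 15% of all promoters, 20.5% of the 16-fold higher and 20.3% of the 16-fold lower ones. The E-box CAGATG, which cannot match the same 6 bases as CAGCTG, was in 11.3, 21.9 and 13.2%. Counted as well, the E-box CACGTG went the other way in these groups, at 10.1% of all promoters, 8.22% of the 16-fold higher and 6.6% of the 16-fold lower ones. Over all called genes, however, CACGTG was in 14% of the promoters of the higher and 8.82% of the lower genes. For CAGCTG those shares were 16.6 and 18.2%, and for CAGATG 13.2 and 11.6%. A match is a description of the letters in this window.

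Epithelial genes mostly stood above and mesenchymal genes mostly below their levels in the other lines, although few passed the test. Of 35 measured genes of epithelial adhesion and keratins 3 were called, all higher. That share of 8.57% was near the 8.66% of all genes. Of the 35, 27 had both RP-116 values above the other 4, against 17.8% of all genes tested. The median log2 fold change was 2.07. Krt19, a keratin of simple epithelia, stood at 17.2 and 14.5 CPM in RP-116 against at most 0.216 CPM (6.92 ± 0.44, adjusted p = 0.00409). The tight junction genes Cldn4 (7.002 and 5.66 CPM against at most 0.108) and Tjp3 (51.1 and 35.7 CPM against 11.6 to 14.9) were the other two. Cdh1, E-cadherin, was at 575 and 505 CPM in RP-116, 309 and 122 in RP-48 and 25.8 and 40.8 in G8545, and missed the threshold (2.30 ± 0.97, adjusted p = 0.207). Krt8 had the same order with 322 and 254 CPM, 124 and 82.9 CPM, and 0.301 and 0.201 CPM.

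Of 26 measured mesenchymal and non-neuroendocrine genes 1 was called higher and 3 lower (15.4% called, beside 8.66% of all genes). Of the 26, 17 had both RP-116 values below the others, against 28.4% of all genes. The median was -2.69. Cdh11, a cadherin of mesenchyme, was at 0.230 and 0 CPM in RP-116, 20.1 and 20.7 in RP-48 and 80.6 and 42.0 in G8545 (-8.26 ± 1.16, adjusted p = 0.0221). Tgfbr2 (0 and 0.680 CPM against 1.91 to 13.6) and Wwtr1, the YAP1 relative TAZ (0.115 and 0.227 CPM against 1.40 to 12.3), were lower too. Vim, the intermediate filament vimentin, was at 0.230 and 0.340 CPM in RP-116, 5.82 and 19.06 in RP-48 and 126 and 459 in G8545, and did not pass the test (-8.79, adjusted p = 0.1096), though it did with DESeq2 (adjusted p = 1.57e-05). Fn1 (0.689 and 0.227 CPM against 32.3 to 638) and Zeb2 (0.344 and 0 CPM against 10.2 to 107) were alike in order. Tgfbi was the exception at 2.87 and 4.53 CPM against at most 0.216 CPM (4.92 ± 0.87). The fibroblast sums given above ran from 9.17 to 21.4 CPM in RP-116 and RP-48 and from 166 to 197 CPM in G8545, and their part in these gaps was not tested.

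Of 14 measured genes of distal lung lineages 4 were called lower and none higher, beside 5.24% of all genes called lower. Both RP-116 values were below the other 4 for 8 of them, against 28.4% of all genes, and overlapped them for the other 6, while 2 had a log2 fold change above 0. Sox9, a factor of lung bud tips, was at 0.344 and 0.113 CPM in RP-116, 20.2 and 33.1 in RP-48 and 65.7 and 105 in G8545 (-7.69 ± 1.12, adjusted p = 0.0237). Etv5, which acts downstream of FGF signals, was at 0.803 and 1.93 CPM against 9.71 to 28.5 CPM, and the water channel gene Aqp5 at 0.344 and 0.227 CPM against 6.43 to 16.9 CPM. Id2 was lower by less, at 190 and 192 CPM against 333 to 343 CPM (-0.73 ± 0.12). Sftpc, surfactant protein C, was at 3.44 and 3.06 CPM against 14.9 to 41.3 CPM (adjusted p = 0.0537).

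**Figure D5:**
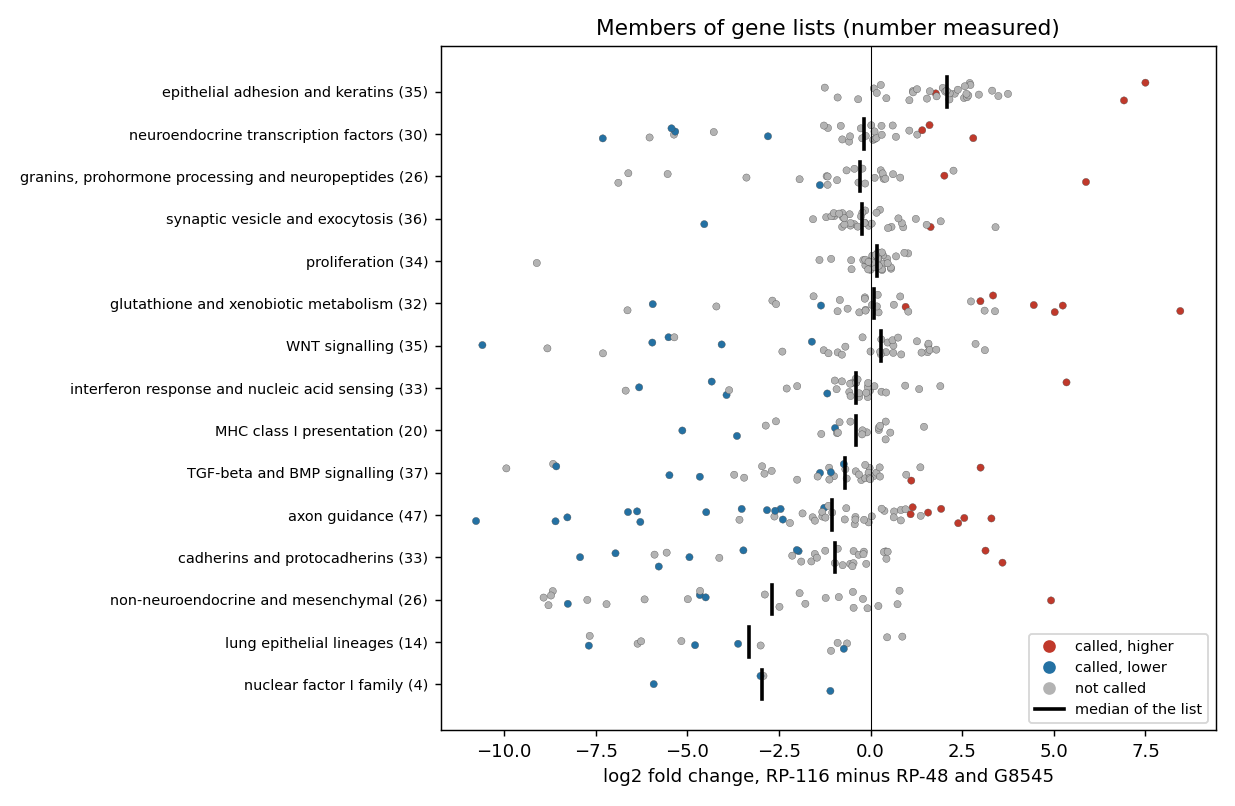
Log2 fold change of RP-116 against the other lines for every measured member of 15 gene lists; points are genes, colored by whether they passed the test, and black bars are medians. The epithelial median is 2.07, the mesenchymal -2.69, and most other lists scatter to both sides of 0 with the called genes at the ends.

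Axon guidance genes, which steer neurites and are active in neuroendocrine tumors, were the list with the largest number of calls. Of 47 measured, 7 were called higher and 13 lower (42.6% beside 8.66% of all genes). Ligands and their receptors were both involved. Among the ligands, Sema3a stood at 0.115 and 0.113 CPM in RP-116 against 32.3 to 49.2 CPM (-8.27 ± 0.45, adjusted p = 0.00356). Slit2 was at 0.230 and 0.340 CPM against 15.05 to 46.0 CPM, and Efnb2, an ephrin, at 22.5 and 22.9 CPM against 89.3 to 220 CPM. Of the receptors, Epha7 was at 0.574 and 0.340 CPM against 33.9 to 48.0 CPM (-6.37 ± 0.38), and Ephb1, Epha5, Epha4, Robo2, Unc5c and Unc5d were lower too. The receptors called higher were Robo1 (257 and 259 CPM against 108 to 150), Unc5a, Unc5b, Plxna1, Plxna4 and Plxnb1, and the only ligand was Sema3b (7.58 and 8.95 CPM against at most 1.01). Within the ROBO and UNC5 families, members thus stood on opposite sides.

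Adhesion molecules were called on both sides too. Of 33 measured cadherins, protocadherins, contactins and neuroligins 2 were called higher and 7 lower, with a median of -0.98. The share called was 27.3%, beside 8.66% of all genes. Pcdh19 had the lowest p of all genes tested: it was at 0.459 and 0.453 CPM in RP-116 against 59.0 to 65.7 CPM (-6.96 ± 0.25, adjusted p = 0.00257). Pcdh10 was at 19.6 and 26.2 CPM against 202 to 370 CPM, and Pcdh17 at 0.918 and 0.793 CPM against 25.7 to 66.3 CPM. Pcdh9 was on the other side at 46.5 and 35.6 CPM against 3.51 to 9.57 CPM (3.14 ± 0.46). Cntn3, a contactin, was at 234 and 214 CPM against 14.8 to 31.5 CPM (3.60 ± 0.23), while Cntn1 was lower at 13.7 and 13.9 CPM against 42.8 to 81.2 CPM.

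Of 35 measured WNT genes 5 were lower and none higher (14.3% called, beside 8.66% of all genes). Their median was 0.28, with 19 log2 fold changes above 0 and 16 below, so the calls and the median had opposite signs. Besides Lef1 they were the related factor Tcf7l1 (0.459 and 0.340 CPM against 15.6 to 24.98, -5.51 ± 0.45), the R-spondin receptor Lgr5 (0.115 and 0.453 CPM against 13.7 to 23.8) and the Frizzled receptors Fzd1 and Fzd8. Of 37 TGF-beta and BMP genes 2 were higher and 6 lower (21.6% called). The ligand Tgfb2 was at 2.07 and 1.81 CPM in RP-116, 34.5 and 61.9 in RP-48 and 142 and 145 in G8545 (-5.49 ± 0.85, adjusted p = 0.0267). The BMP effectors Smad1 (50.05 and 59.3 CPM against 137 to 170) and Smad9 (33.6 and 35.0 CPM against 71.3 to 82.3) were lower, and the ligand Bmp6 (5.51 and 5.10 CPM against at most 1.003) was higher.

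Of 22 measured Notch pathway genes 1 was higher and 3 lower (18.2% called, beside 8.66% of all genes), with a median of -0.53. The ligand Dll4 was at 6.31 and 6.68 CPM against 23.7 to 43.1 CPM (-2.23 ± 0.34, adjusted p = 0.0256) and the target Hey2 at 0 and 0.113 CPM against 1.61 to 3.56 CPM. The receptor Notch4 was at 17.7 and 9.40 CPM against 1.505 to 3.62 CPM (2.50 ± 0.47). Hes5 was called at 0.230 and 1.13 CPM although G8545 with DMSO was at 1.10 CPM, so its groups overlapped. Dll3, an inhibitory ligand and drug target in SCLC, was between the lines at 19.2 and 22.8 CPM in RP-116, 2.80 and 2.81 in RP-48 and 127 and 56.7 in G8545. Rest, the repressor of neuronal genes, was at 0.230 and 2.83 CPM in RP-116, 18.9 and 25.1 in RP-48 and 2.81 and 39.2 in G8545.

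MHC class I presentation held a low structural part in RP-116. B2m, the invariant chain without which class I molecules do not reach the surface, stood at 2.87 and 4.08 CPM in RP-116, 41.2 and 32.0 in RP-48 and 52.0 and 61.5 in G8545. The groups did not overlap, and the log2 fold change was -3.65 ± 0.37 (adjusted p = 0.0131). The heavy chain H2-K1 was at 66.2 and 83.8 CPM in RP-116 against 56.2 to 68.3 CPM (0.41 ± 0.14, adjusted p = 0.147). The heavy chain H2-D1 was lower at 40.4 and 49.1 CPM against 85.7 to 104 CPM (-0.97 ± 0.17, adjusted p = 0.0319). H2 genes resemble each other, so their counts are uncertain. Nlrc5, the transactivator of class I genes, was at 0.115 and 0 CPM against 2.11 to 3.73 CPM (adjusted p = 0.0423). Of 20 measured class I genes B2m, H2-D1 and Nlrc5 were the ones called (15%, beside 8.66% of all genes), with a list median of -0.39. Near B2m on chromosome 2, Sord (10.4 and 14.8 CPM against 51.6 to 131), Shf and Gatm were called lower as well. On that side Duox2, between Sord and Shf, and Spata5l1, beyond Gatm, were not called (-1.89 and 0.67). Spg11, Eif3j1 and Ctdspl2 on the other side of B2m were not called either.

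Jak1, the kinase shared by the interferon receptors, was at 2.07 and 1.02 CPM in RP-116, 172 and 186 in RP-48 and 67.2 and 100 in G8545 (-6.32 ± 0.78, adjusted p = 0.0174). Its neighbours on chromosome 4 stood on both sides. Jak1 itself lies at 101152367-101265282. Cachd1, at 100776675-101029220, was higher in RP-116 (54.9 and 66.2 CPM against 6.33 to 15.4). Leprot, at 101647718-101659364, had the order of Jak1 (12.9 and 14.3 CPM in RP-116, 43.6 and 45.5 in RP-48, 23.2 and 15.6 in G8545), and Raver2 was at 0.115 and 0 CPM against 0.401 to 15.5 CPM. Leprot, Raver2 and Dnajc6 were not called. Of 33 measured interferon and nucleic acid sensing genes 4 were lower and 1 higher (5 of 33 called, beside 8.66% of all genes), with a median of -0.40. Besides Jak1 the lower ones were Stat2 (16.2 and 19.15 CPM against 35.3 to 49.2), Ifit2 (1.84 and 0.340 CPM against 18.6 to 26.7) and the GTPase gene Irgm1 (0.230 and 0.453 CPM against 3.34 to 8.56). Usp18, a negative regulator of the type I interferon receptor, was the higher one at 10.4 and 15.7 CPM against at most 0.603 CPM (5.35 ± 0.95, adjusted p = 0.0351). The checkpoint ligand Cd274 was low throughout, at 1.49 and 1.02 CPM in RP-116 and 1.51 to 2.91 CPM in the others.

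Of 29 measured surface molecules and drug targets of SCLC 3 were higher and 3 lower (20.7% called, beside 8.66% of all genes). The receptor kinase Erbb2 was at 9.41 and 9.86 CPM in RP-116 against at most 0.101 CPM (8.11 ± 0.89, adjusted p = 0.0144). Its partner Erbb3 was at 35.5 and 40.8 CPM against 2.81 to 10.9 CPM (adjusted p = 0.0611) and Fgfr2 at 66.9 and 72.3 CPM against 2.11 to 15.3 CPM (adjusted p = 0.0594). Sstr3, a somatostatin receptor, and Slfn9, a Schlafen gene, were the other 2 higher ones. The chemokine receptor Cxcr4 was at 2.53 and 1.36 CPM against 6.75 to 21.6 CPM, Prom1 (CD133) at 9.76 and 15.5 CPM against 36.3 to 126 CPM, and B4galnt1, an enzyme of ganglioside synthesis, at 7.92 and 8.50 CPM against 20.7 to 32.0 CPM.

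Detoxification genes were called in both directions, 7 higher and 2 lower of 32 measured (28.1% called, beside 8.66% of all genes). Besides Gpx2 the higher ones were the glutathione transferases Gsto1 (11.5 and 14.7 CPM against at most 0.903), Gstt2 and Gstm2, the aldehyde dehydrogenases Aldh2 (38.7 and 52.8 CPM against 2.41 to 15.8) and Aldh3b1, and Gclc, which limits glutathione synthesis (134 and 143 CPM against 70.3 to 79.2, 0.96 ± 0.12). Hmox1, heme oxygenase, was lower at 11.02 and 14.4 CPM against 28.5 to 42.9 CPM (-1.35 ± 0.19), as was Mgst1. Glutathione transferases have close copies, and their counts are uncertain. Proliferation genes gave no call among 34 measured, beside 8.66% of all genes, with a median of 0.17. Among 32 tumor suppressors Robo1 was higher and Ptprd lower (6.25% called). Rb1 (235 and 223 CPM against 121 to 218) and Trp53 (19.4 and 17.6 CPM against 12.4 to 17.7) were not called. Counts over a whole gene do not show whether an allele is deleted.

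The drug target itself was higher in RP-116. Kdm1a, which encodes LSD1, stood at 865 and 829 CPM in RP-116, 516 and 476 in RP-48 and 609 and 521 in G8545 (0.78 ± 0.12, adjusted p = 0.0277). It lies on chromosome 4 between 130 and 140 Mb. Of the 143 genes tested there 18 were called higher and 5 lower (16.1% called), with a median of 0.20. The part of this region in the difference of Kdm1a was not tested. Of the 15 measured genes of LSD1 complexes 13.3% were called, beside 8.66% of all genes, and Kdm1a was the 1 called higher. Rcor3 was lower (22.04 and 24.9 CPM against 47.1 to 49.4, -0.95 ± 0.16), and the CoREST gene Rcor2 was at 185 and 170 CPM against 35.8 to 132 CPM without passing (adjusted p = 0.0645).

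Whether RP-116 responded to BOM differently was asked with a product of line and treatment, a fit with 1 residual degree of freedom. None of 14956 genes was called by edgeR (lowest adjusted p 0.261), 571 had an unadjusted p below 0.05, and DESeq2 and limma voom gave no call either (128 and 551 unadjusted). The lowest p belonged to Egr1, an immediate early factor. It was at 96.6 and 66.2 CPM in RP-116, 14.7 and 64.1 CPM in RP-48, and 24.2 and 77.0 CPM in G8545, log2 changes with BOM of -0.55, 2.11 and 1.66. Palmd, a palmdelphin gene, had log2 changes of -1.43, 1.25 and 1.13, and Mfge8, a milk fat globule protein, of -0.88, 2.06 and 1.30 in the same order. These 3 moved down in RP-116 and up in both other lines, from 1 library each, and the differences did not pass the test. Notch1 was at 3.21 and 18.0 CPM in RP-116, 29.5 and 109 in RP-48 and 5.12 and 84.4 in G8545, so it was higher with BOM in each line.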

How the data were processed

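The authors deposited raw read counts for each gene. Per the submitters' processing notes, bcl2fastq, STAR 2.7, FastQC 0.11.9, featureCounts, Subread 2.0 and mm10 were used, without settings. Per the labels' protocols the kit was NEBNext Ultra RNA, which does not mark strand, so overlapping and antisense genes are uncertain. All 6 columns at 96 h were used, with 3 columns at 10 d for levels alone. No test crossed tables. After filterByExpr and TMM scaling, edgeR 4.0.16 (R 4.3.3) gave quasi-likelihood F-tests with terms for treatment and for RP-116 (3 residual degrees of freedom, biological coefficient of variation 0.443) and Benjamini-Hochberg adjustment over all genes tested. Positions came from GENCODE M21 for 99.9% of gene identifiers, and promoters from RefSeq. Log2 CPM used a prior count of 2. Each SE was the absolute log2 fold change divided by the square root of F, so it is approximate.

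The line, the gene lists and the rules were chosen with earlier results of these data known. The rule named the 12 highest and 12 lowest calls whose mean log2 CPM reached 3, the 4 members of each list with the lowest p, fixed genes such as Kdm1a, B2m and Mycl, the 3 lowest p of the interaction, and runs of at least 5 neighbouring called genes. Not every gene it names is printed. Other list members, and neighbours of Mycl, Nfib, B2m and Jak1, were chosen after their values were seen. Nothing says that libraries came from separate cultures, so spread may be technical. The pipeline was tested on simulated data. Alternatives were DESeq2 1.42.0, limma voom (3.58.1), other scalings, filters, designs and sets of libraries.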

Additional observations from a re-analysis of the deposited data

How the results depend on the processing

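The count of 1233 called genes was 3098 with DESeq2, 5205 with line at 3 levels and 2049 with no treatment term. It was 5967 for RP-116 against RP-48 alone and 4216 against G8545 alone, and 0 with the DMSO or the BOM libraries only (1285 and 1539 at an unadjusted p below 0.05). Leaving out 1 library gave 0 to 790 calls, 0 without either RP-116 library. With fewer libraries the fit has fewer residual degrees of freedom, and other causes were not tested. Limma voom called 898 genes, of which 823 were shared, RLE scaling 1234, no filter 1299, a filter at 1 CPM 1227 and library size alone 1204. The share called higher was 39.5%, 57.8% with voom (519 higher, 379 lower) and 32.2% with library size alone (388 higher, 816 lower), where the median of all genes moved from -0.02 to -0.12. Leaving out Gm26917 and Gm42418 gave 1233. The 40 called genes among those followed through every setting kept their sign, with 542 of 758 values also past the threshold. Genes that were not called and changed sign were Dll3 (0.42 with voom, 1.06 without G8545 DMSO, 0.44 without G8545 BOM, 2.94 against RP-48 alone, 0.54 with line at 3 levels, and -1.60 to 1.06 with 1 library left out), Notch2 (0.17 without RP-116 BOM and 0.17 with DMSO only, -0.37 to 0.17), Hes1 (0.30 without RP-48 DMSO, 1.02 against G8545 alone, -0.96 to 0.30), Cdkn2a (0.23 without RP-48 BOM, 0.34 against G8545 alone, -0.27 to 0.23) and Yap1 (-0.21 against G8545 alone). The interaction had 0 calls except with no filter, where it had 60 (28 and 32).

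Among the 69 genes followed through every setting, 29 were not called by edgeR, and DESeq2 called 14 of these and voom 0. With DESeq2 the adjusted p was 1.57e-05 for Vim, 3.18e-05 for Nfib, 3.19e-05 for Myc and 0.0490 for Mycl, and with voom 0.592, 0.0894, 0.201 and 0.0559.

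No paired analysis was possible because the labels number every library 1 within its group, so the numbers pair nothing. Treatment was a term in the comparison of lines, and line was a block in the interaction, which also had 0 calls with no block by line. Genes near 0 counts in RP-116 have bounds set by depth.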

Other observations

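HOX genes divided the lines in another way, with RP-116 and RP-48 on one side. Of 39 HOX genes 12 were measured and none was called for RP-116 against both lines, beside 8.66% of all genes. Hoxb9 stood at 399 and 429 CPM in RP-116, 129 and 144 in RP-48 and 0 and 0.101 in G8545, and Hoxb8 at 173 and 177, 126 and 183, and 0 and 0 CPM. All 8 measured Hoxb genes, Hoxb2 to Hoxb9, were at 7.55 CPM or more in RP-116 and RP-48 and at most 0.101 CPM in G8545. The Hoxd genes were the reverse: Hoxd8 had 0 counts in RP-116, 0 and 0.1003 CPM in RP-48 and 37.0 and 58.9 CPM in G8545. Xist gave yet another division, at 2958 and 2896 CPM in RP-116, 1629 and 2876 in G8545 and 0.647 and 1.20 in RP-48, and the Y-linked Ddx3y was at 33.8 and 43.9 CPM in RP-48 and at most 0.230 CPM in the other lines.

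Imprinted genes gave 2 calls among 19 measured (10.5%, beside 8.66% of all genes), both lower. Snrpn was at 0.459 and 1.02 CPM in RP-116 against 19.09 to 28.0 CPM in the others (-4.95 ± 0.42, edgeR adjusted p = 0.00899), and the neuronal gene Nnat at 23.3 and 26.4 CPM against 120 to 338 CPM (-3.04 ± 0.47). Peg3 overlapped between the lines (404 and 437 CPM against 336 to 755 CPM). Of 9 measured germline genes 2 were higher and 2 lower (44.4% called). The piRNA pathway gene Tdrd1 was at 28.4 and 28.3 CPM against at most 0.863 CPM (5.59 ± 0.40), and Sycp1, of the synaptonemal complex, at 0.459 and 0.227 CPM against 11.6 to 20.3 CPM (-5.32 ± 0.54).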
